A study of Danio rerio with 12 samples.

Results

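Gene expression in regenerating hearts of dnHIF1a-expressing zebrafish was set against that in regenerating hearts of wildtype (WT) zebrafish, both taken 7 days after amputation. The dnHIF1a group (3 arrays) came from adult, sexually mature transgenic (Tg) fish whose genotype lists cmlc2a:Ert2-Cre-Ert2 and cmlc2a:LnL:GFP together and cmlc2a:LrL:dnHIF1a apart from them. The WT group (3 arrays) came from adult, sexually mature fish of the AB line. Unamputated, untreated hearts of the same line and of WT fish (3 arrays each) served to show which differences were also present without injury, so that 6 of the series' 12 arrays carry the comparison itself. All 15502 probe sets of the Affymetrix Zebrafish Genome Array other than the maker's controls were compared, of 15617 on the array, and 8793 named genes were each represented by their probe set with the highest mean. The promoter in the transgene's name, cmlc2a, is that of the heart muscle myosin light chain gene now called myl7, so a dominant negative HIF1a under it would be made in cardiomyocytes. The labels leave unsaid on what background the transgenes were kept, whether the Cre was activated, and whether a group's arrays are separate animals. The transgenes, the Cre and the line therefore cannot be told apart, and p-values measure only the spread between these samples, which may be technical.

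HIF1a is the oxygen-regulated subunit of a transcription factor. With oxygen present, prolyl hydroxylases of the EGLN family mark it for degradation, and in hypoxia it persists, pairs with a stable partner and switches on genes of glycolysis, angiogenesis and cell survival. Zebrafish regrow amputated ventricle from cardiomyocytes that re-enter the cell cycle, beneath an epicardium that is activated by the wound and lays down matrix, while macrophages and other leukocytes clear debris. The series asks whether hypoxia signalling contributes to this regrowth.

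Values are RMA expression values in log2 units, differences are dnHIF1a minus WT group means ± the standard error from limma (n = 3 arrays per group), and a gene is called where its p-value, adjusted over all probe sets, is under 0.05. Arrays are numbered 1 to 3 within each group as in the labels. No size of difference is given where a group compared averaged under 4, since these values carry no measure of background. Array medians lay between 5.55 and 5.59, and correlations across probe sets were 0.994 to 0.996 within the amputated groups and 0.984 to 0.988 between them. The cardiomyocyte marker myl7 stood near the top of the range on every array, at 14.69, 14.74 and 14.70 in dnHIF1a and 14.71, 14.58 and 14.62 in WT amputated hearts. The mean of 31 erythrocyte markers was 7.68, 7.39 and 8.09 in dnHIF1a and 8.46, 7.79 and 8.45 in WT amputated hearts, and that of 34 skeletal muscle markers was highest on array 3 of each amputated group (6.93 in dnHIF1a and 6.65 in WT, with the other 4 arrays between 6.19 and 6.30). Each count was therefore repeated with the erythrocyte mean of each array as a covariate, and with each array left out. The probe set for hif1ab read 9.57, 9.56 and 9.62 in dnHIF1a and 9.57, 9.58 and 9.42 in WT amputated hearts, with overlapping groups. This checks nothing about the transgene, whose sequence may lie outside what the probe set detects.

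Of the 15502 probe sets, 2000 (12.9%) were called between the amputated groups, 954 higher (6.15%) and 1046 lower (6.75%) in dnHIF1a hearts. Among the 8793 genes 595 were higher (6.77%) and 653 lower (7.43%), and the median difference over all genes was 0.01. These shares of all genes are the background for the counts of list members in amputated hearts given below. A difference of at least 1 log2 unit was called for 59 higher and 66 lower genes. The arrays of the 2 genotypes did not overlap for 2965 genes (33.7%) in amputated hearts and for 2481 (28.2%) in unamputated hearts. The number of probe sets called was 1138 without dnHIF1a array 2, 1236 without dnHIF1a array 1 and 1279 without WT array 1 of the amputated groups, and 884 with the erythrocyte covariate.

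The same genotype difference, measured on separate arrays of unamputated hearts, was called for 1764 probe sets (11.4%), 902 higher (5.82%) and 862 lower (5.56%). Among genes 554 were higher (6.3%) and 549 lower (6.24%). Of the 595 genes higher in amputated dnHIF1a hearts, 218 were also higher in unamputated dnHIF1a hearts, which is 36.6% of the first list and 39.4% of the second. Of the 653 lower genes, 222 were also lower in unamputated hearts, which is 34% of the first list and 40.4% of the second. Another 25 genes were called in opposite directions. Across the 8793 genes the differences in the amputated and unamputated hearts had a Pearson correlation of 0.49, which is a description over genes that share the lines and the array platform. A test of the change in the genotype difference (amputated minus unamputated hearts) called 347 probe sets (2.24%), 137 with a more positive (0.884%) and 210 with a more negative (1.35%) difference in amputated hearts. Among genes it called 228 (2.59%), 87 more positive (0.989%) and 141 more negative (1.6%). It called 149 probe sets without dnHIF1a array 1, 162 without dnHIF1a array 2, 175 without WT array 1 and 228 without WT array 3 of the amputated hearts, and 194, 161 and 590 without unamputated dnHIF1a array 1, unamputated dnHIF1a array 2 and unamputated WT array 3. With the erythrocyte covariate it called 24, and of the 27 genes named here with a called change only aebp1b, fbxo32, filip1b, krt15 and mmp2 were then called.

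**Figure D1:**
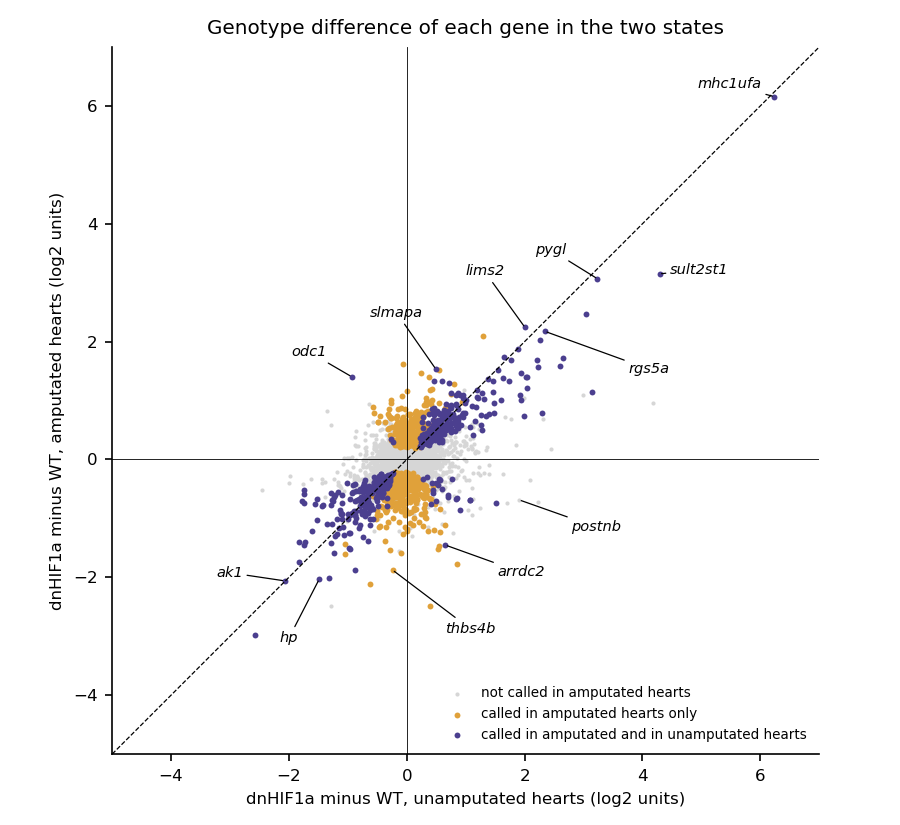
Each point is 1 of 8793 genes, with the dnHIF1a minus WT difference (log2 units) in unamputated hearts on the horizontal axis and in amputated hearts on the vertical axis. Colours mark genes called in amputated hearts only or in amputated and unamputated hearts, and the dashed line marks equal differences. Genes such as pygl, lims2, rgs5a and ak1 lie near that line, whereas thbs4b and slmapa lie toward the vertical axis, and odc1 and arrdc2 have opposite signs on the 2 axes.

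The genes that separated the lines most in amputated hearts included several that also did so without injury. mhc1ufa, a major histocompatibility complex class I gene, read 9.16, 9.24 and 9.95 in dnHIF1a and 3.57, 3.02 and 3.29 in WT amputated hearts (adjusted p = 1.23e-08). Every WT array of mhc1ufa was at the low end of the scale and every dnHIF1a array far above it. Zebrafish lines are known to carry different sets of class I genes, and whether these fish do was not tested. sult2st1, a cytosolic sulfotransferase, read 9.63, 9.92 and 9.80 in dnHIF1a and 6.26, 6.76 and 6.88 in WT hearts (difference 3.15 ± 0.20, 8.88-fold, adjusted p = 1.7e-06), with 4.29 ± 0.20 in unamputated hearts. The change in the sult2st1 difference missed the threshold (-1.14 ± 0.29, adjusted p = 0.0622) and passed it without amputated WT array 1 (0.0464) and without the flattest 25% of probe sets (0.0448). Its relative sult2st2 was also higher (1.57 ± 0.15, adjusted p = 4.07e-05), and sult1st1, of another sulfotransferase subfamily, was lower (-1.53 ± 0.22, adjusted p = 0.000802). pygl, the liver-type glycogen phosphorylase that releases glucose from glycogen, read 8.0, 8.38 and 7.76 in dnHIF1a and 5.10, 4.88 and 4.96 in WT hearts (3.07 ± 0.19, 8.38-fold, adjusted p = 1.37e-06). The groups of pygl did not overlap, as the rule that chose the leading genes required, and its other 2 probe sets gave 2.28 and 0.89.

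lims2, which encodes a PINCH adaptor of integrin adhesions, was 8.74, 8.76 and 8.77 in dnHIF1a and 6.63, 6.51 and 6.41 in WT amputated hearts (2.24 ± 0.11, adjusted p = 3.04e-07). The 3 dnHIF1a arrays were nearly equal and all lay over 2 log2 units above every WT array. rgs5a, a regulator of G-protein signalling typical of pericytes in mammals, was 8.41, 8.72 and 8.23 in dnHIF1a and 6.35, 6.33 and 6.16 in WT hearts (2.17 ± 0.22, adjusted p = 5.63e-05), with 1.36 from its other probe set. riok2, a kinase of small ribosomal subunit maturation, differed by 1.88 ± 0.16 in amputated and 1.88 ± 0.16 in unamputated hearts (adjusted p = 1.47e-05 and 1.14e-05). The fatty acid activating enzyme acsl1a was higher by 0.85 ± 0.08 on its brightest probe set (adjusted p = 3.85e-05), and its 4 further probe sets differed widely in size. Of these, 1 read 7.09 in dnHIF1a and 3.25 in WT hearts, 1 read 6.63 in dnHIF1a and 4.22 in WT hearts (2.41), 1 was higher by 0.74, and 1 was not called (0.37, adjusted p = 0.0698). aacs, acetoacetyl-CoA synthetase, read 5.91, 5.92 and 5.64 in dnHIF1a hearts and 4.04, 3.63 and 3.72 in WT hearts. slc25a14, a mitochondrial carrier of the uncoupling protein family, read 4.70, 6.08 and 6.08 in dnHIF1a hearts and 3.15, 3.10 and 3.21 in WT hearts, so its dnHIF1a array 1 lay well below the other 2. Of the 2 other slc25a14 probe sets, 1 read 5.71 in dnHIF1a and 3.04 in WT hearts and 1 was not called (adjusted p = 0.256).

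Among the genes lower in dnHIF1a hearts in both states, ak1, an adenylate kinase of muscle energy supply, read 11.32, 11.45 and 11.71 in dnHIF1a and 13.61, 13.64 and 13.41 in WT amputated hearts. Its difference was -2.06 ± 0.11 in amputated hearts (adjusted p = 3.33e-07) and -2.07 ± 0.11 in unamputated hearts. hp, haptoglobin, the plasma protein that binds free haemoglobin, was 5.26, 5.43 and 5.13 in dnHIF1a and 7.24, 7.13 and 7.55 in WT hearts (-2.03 ± 0.13, 4.09-fold lower, adjusted p = 1.96e-06). spint2, a Kunitz-type protease inhibitor, was also lower (-2.02 ± 0.23, adjusted p = 0.000159), and so was ass1, argininosuccinate synthetase (-1.40 ± 0.29, adjusted p = 0.00763). No array of one group overlapped the other in any of these 4 genes, which was also so for 33.7% of all genes. The rule that chose the leading genes required it. The chemokine gene ccl27a read 3.42, 3.43 and 3.51 in dnHIF1a hearts and 6.05, 6.12 and 7.14 in WT hearts. Its call (adjusted p = 0.0206) ended without WT array 3 (0.0777), dnHIF1a array 1 (0.0635) or dnHIF1a array 2 (0.065), with a trended and robust prior (0.0717), and with the erythrocyte covariate (0.104).

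**Figure D2:**
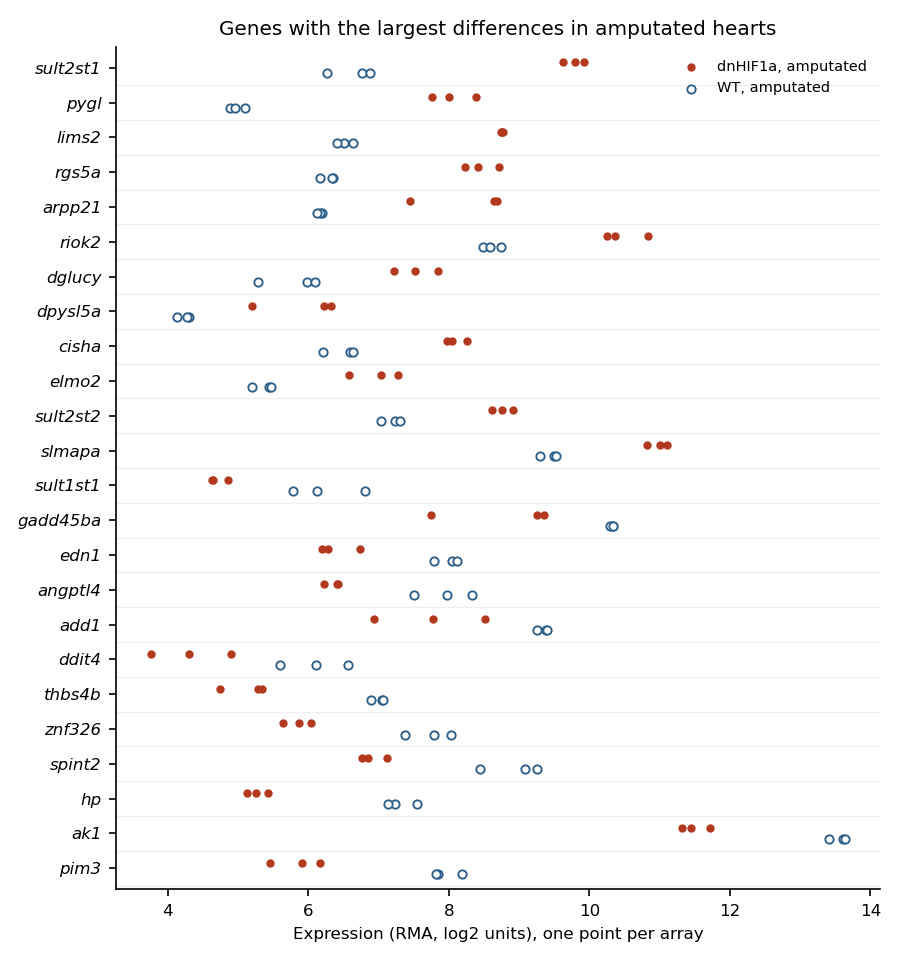
Expression (RMA, log2 units) of the 12 most strongly higher and 12 most strongly lower genes with both group means of at least 4, one point per array, filled for dnHIF1a and open for WT amputated hearts. The groups do not overlap for any of the 24 genes, by the rule that chose them. arpp21, dpysl5a, gadd45ba and add1 have 1 or more dnHIF1a arrays well away from the others of the group.

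Other leading genes are known for roles outside the heart or have less studied ones. arpp21, a cAMP-regulated phosphoprotein first described in brain, was higher by 2.1 ± 0.39 (adjusted p = 0.00446), with dnHIF1a arrays at 7.45, 8.68 and 8.64 and WT arrays between 6.13 and 6.19. dpysl5a, a collapsin response mediator protein, was higher by 1.68 ± 0.28 (adjusted p = 0.00243), elmo2, an adaptor for Rac activation, by 1.59 ± 0.27 (adjusted p = 0.0025), and dglucy, D-glutamate cyclase, by 1.74 ± 0.21 (adjusted p = 0.000295). znf326, a zinc finger gene, was lower by -1.88 ± 0.19 (adjusted p = 7.57e-05). add1, a spectrin-actin adaptor, read 7.78, 6.94 and 8.52 in dnHIF1a and 9.38, 9.25 and 9.40 in WT hearts (-1.60 ± 0.32, adjusted p = 0.00586, or 0.08 with the erythrocyte covariate). gadd45ba, a stress-induced growth arrest gene, read 9.26, 7.74 and 9.35 in dnHIF1a and 10.33, 10.29 and 10.34 in WT hearts (-1.54 ± 0.41, adjusted p = 0.0267). Its call ended without dnHIF1a array 2 (0.0911) or without any one of the WT arrays (0.0622 to 0.0751), with the trended and robust prior (0.0766), and with the covariate (0.147).

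Called matrix and matrix-remodelling genes were mostly lower in the amputated dnHIF1a hearts, against a background of 7.43% of genes lower. Of 31 extracellular matrix genes 7 were lower and 1 higher (median difference -0.26, against 0.01 over all genes), and of 25 matrix enzymes and collagen-processing genes 11 were lower and none higher (median -0.41). thbs4b, a thrombospondin of muscle and tendon matrix, read 5.34, 4.74 and 5.29 in dnHIF1a and 6.89, 7.05 and 7.06 in WT amputated hearts (-1.88 ± 0.15, 3.67-fold lower, adjusted p = 1.39e-05). In unamputated hearts it read 4.86, 4.78 and 4.81 in dnHIF1a and 4.76, 5.16 and 5.25 in WT, so only the amputated WT arrays stood high, and the test of the change in genotype difference gave -1.64 ± 0.22 (adjusted p = 0.00433). ctsk, a collagen-degrading cathepsin, was lower by -0.73 ± 0.13 (adjusted p = 0.00287), and lama5, a laminin chain of basement membrane, by -0.72 ± 0.11 (adjusted p = 0.00125). p4ha2, a prolyl hydroxylase that modifies collagen, was lower by -0.42 ± 0.08 in amputated (adjusted p = 0.00475, or 0.0546 with the erythrocyte covariate) and by -0.88 ± 0.08 in unamputated hearts.

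For another set of matrix genes the genotype difference had opposite signs in the 2 states. mmp2, a gelatinase, read 9.67, 9.87 and 9.72 in dnHIF1a and 10.52, 10.17 and 10.54 in WT amputated hearts (-0.66 ± 0.11, adjusted p = 0.00222). In unamputated hearts it read 8.88, 8.93 and 8.65 in dnHIF1a and 7.97, 8.04 and 7.88 in WT (0.86 ± 0.11), and the change in difference was -1.51 ± 0.15 (adjusted p = 0.00101). WT was thus the highest group after amputation and the lowest without it, with no overlap between genotypes in either state. aebp1b, a collagen-binding matrix protein gene, followed the same order (amputated -0.69 ± 0.12, unamputated 1.07 ± 0.12, change -1.76 ± 0.18 with adjusted p = 0.00101), as did col5a2a, a fibrillar collagen chain (amputated -0.57 ± 0.09, unamputated 0.45 ± 0.09, change -1.02 ± 0.13 with adjusted p = 0.00342). A dimmer probe set of col5a2a was not called (0.16, adjusted p = 0.314). The membrane-type metalloproteinase mmp14b was lower in amputated hearts (-0.62 ± 0.11, adjusted p = 0.00243), with a change of -0.94 ± 0.15 (adjusted p = 0.00985). postnb, periostin, a marker of activated fibroblasts, read 10.54, 10.91 and 10.76 in dnHIF1a and 11.31, 11.25 and 11.71 in WT amputated hearts, which missed the threshold (-0.69 ± 0.23, adjusted p = 0.0706), although the change in difference was -2.60 ± 0.33 (adjusted p = 0.00342). The postnb difference passed without WT array 2 (0.0419) or WT array 3 (0.0239) of the unamputated hearts, with array weights (0.0476) and in a fit to the 6 amputated arrays alone (0.0116). col1a2, a type I collagen chain, was likewise not called in amputated hearts (-0.35 ± 0.14, adjusted p = 0.13, or 0.0384 from those 6 arrays alone), with a change of -1.36 ± 0.20 (adjusted p = 0.00779). Its other probe set was lower (-0.71, adjusted p = 0.0113). With the erythrocyte covariate the aebp1b call ended (0.0528).

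**Figure D3:**
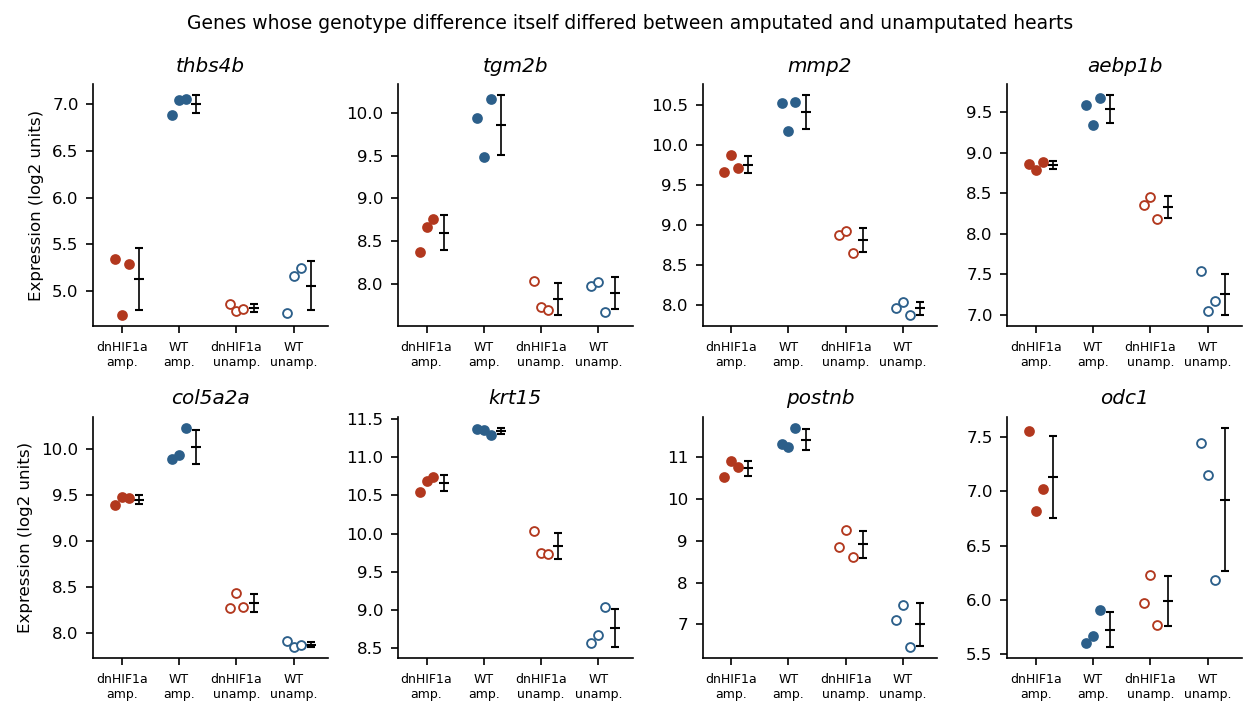
Expression (log2 units) of 8 genes on every array, filled for amputated and open for unamputated hearts, with the group mean ± SD (n = 3) beside the points. In thbs4b and tgm2b the amputated WT arrays stand above the other 3 groups, in mmp2, aebp1b, col5a2a, krt15 and postnb amputated WT is highest and unamputated WT lowest, and in odc1 the order of the genotypes turns round.

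Of 32 epicardium and fibroblast markers, 10 were lower and 1 higher in amputated dnHIF1a hearts (median -0.26), whereas 13 were higher and none lower in unamputated ones (median 0.38, against a background of 6.3% of genes higher). The mean of the list was 8.79, 8.90 and 8.95 in dnHIF1a and 9.14, 8.93 and 9.26 in WT amputated hearts, so that the groups overlapped. This list shares mmp2, mmp14b, postnb, col1a2 and col5a2a with the matrix genes described above, so its counts are not separate from the matrix results. In a whole heart, fewer cells of a type and less RNA per cell cannot be told apart. tgm2b, a transglutaminase that crosslinks matrix, read 8.37, 8.66 and 8.76 in dnHIF1a and 9.94, 9.48 and 10.16 in WT hearts (-1.26 ± 0.17, adjusted p = 0.000466). fn1a, fibronectin, read 8.68, 8.64 and 9.23 in dnHIF1a and 9.85, 9.14 and 10.13 in WT hearts, with overlap, and its call (-0.86 ± 0.26, adjusted p = 0.0451) ended without dnHIF1a array 1 or 2 or WT array 1 or 3 (0.133 to 0.163), without unamputated dnHIF1a array 2 or 3 (0.0575 and 0.0523), with the trended and robust prior (0.0748) and with the covariate (0.416). Neither of the 2 other fn1a probe sets was called (-0.21 and 0.16). mdka, midkine, a secreted growth factor of the injured epicardium, was lower by -0.83 ± 0.21 (adjusted p = 0.0217), and that call ended without dnHIF1a array 1 or 2 or WT array 1 or 3 (0.059 to 0.0925) and with the covariate (0.219). The embryonic epicardial genes aldh1a2, the retinoic acid synthesising enzyme (0.25 ± 0.21, adjusted p = 0.505), and tbx18 (0.08 ± 0.10, adjusted p = 0.679) were not called, and cxcl12a, the 1 higher member, is described with the HIF targets. The 10 lower markers became 5 or 6 without dnHIF1a array 1 or 2 or WT array 1 or 3, and the 11 lower matrix enzymes 6 or 7 without WT array 3 or any one of the dnHIF1a arrays. With the covariate the lower counts were 5 markers, 6 matrix enzymes and 4 matrix genes.

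Of 52 epithelium markers 6 were lower (11.5%) and 1 higher (1.92%), against 7.43% and 6.77% of all genes (median -0.05). The mean of the list was 6.14, 6.18 and 6.18 in dnHIF1a and 6.19, 6.16 and 6.46 in WT amputated hearts, with WT array 3 alone standing high. Without WT array 3 the list median was 0.02, and 23 of the 52 differences were negative in place of 31. krt15, a keratin, read 10.54, 10.69 and 10.74 in dnHIF1a and 11.37, 11.36 and 11.29 in WT amputated hearts (-0.68 ± 0.12, adjusted p = 0.00283), against 10.03, 9.74 and 9.73 in dnHIF1a and 8.57, 8.67 and 9.04 in WT unamputated hearts. Its change in difference was -1.76 ± 0.17 (adjusted p = 0.000805), so the genotype order of this gene turned round between the states. krt94, another keratin gene, was lower by -0.59 ± 0.09 (adjusted p = 0.000898), with a change of -0.72 ± 0.12 (adjusted p = 0.0123). The 6 lower calls became 3 without dnHIF1a array 1, WT array 1 or WT array 3, and with the covariate.

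Genes of cell adhesion to matrix were higher in their called members. Of 13 integrin and focal adhesion genes 5 were higher (38.5%, against 6.77% of all genes) and none lower (median 0.09), while 5 of the 13 differences were negative. Among the higher ones were lims2 and its partner parvaa, a parvin that links integrins to actin (5.85, 6.35 and 6.34 in dnHIF1a and 5.13, 5.06 and 5.07 in WT hearts). The parvaa difference was 1.09 ± 0.12 (adjusted p = 8.79e-05). itga5, the fibronectin receptor subunit, was higher in amputated hearts (0.70 ± 0.12, adjusted p = 0.0025) and not called in unamputated ones (-0.27 ± 0.12), and the difference between these was called (0.98 ± 0.17, adjusted p = 0.0144).

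Called macrophage markers were lower with and without amputation, as were the called members of a list of class I antigen processing genes, which does not hold mhc1ufa. Of 36 macrophage and pan-leukocyte markers 15 were lower and none higher (median -0.46), and 21 were lower in unamputated hearts (median -0.79, against a background of 6.24% of genes lower). The mean of the list was 8.17, 7.91 and 8.16 in dnHIF1a and 8.42, 8.63 and 8.69 in WT amputated hearts, with 7.27, 7.29 and 7.16 in dnHIF1a and 8.06, 8.02 and 7.90 in WT unamputated hearts. The genotype groups did not overlap in either state, and each amputated group lay above its own unamputated one. ctss2.2, a cathepsin S of antigen presenting cells, read 9.41, 9.23 and 9.68 in dnHIF1a and 10.17, 10.58 and 10.62 in WT amputated hearts (-1.02 ± 0.13, adjusted p = 0.000412). The chemokine gene ccl34b.1 read 4.62, 4.71 and 4.65 in dnHIF1a and 5.42, 5.52 and 5.39 in WT hearts (-0.78 ± 0.12, adjusted p = 0.0016). grna, a progranulin gene, was lower by -0.67 ± 0.09 in amputated and by -1.53 ± 0.09 in unamputated hearts, and the difference was smaller after amputation by the test of the change (0.86 ± 0.13, adjusted p = 0.00982). The 15 lower calls became 9 without dnHIF1a array 2 and 6 with the erythrocyte covariate.

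All 13 genes of class I antigen processing had negative differences in amputated hearts, and 6 were called lower (median -0.35). In unamputated hearts 10 were called lower, against a background of 6.24% of genes lower. b2m, the light chain of class I molecules, was 11.92, 11.84 and 11.91 in dnHIF1a and 12.29, 12.27 and 12.13 in WT hearts (-0.34 ± 0.07, adjusted p = 0.00586), which is opposite in direction to mhc1ufa. Of 13 interferon response genes 2 were lower, and gbp1, an interferon-induced GTPase, was the leading one at 5.76, 5.71 and 5.67 in dnHIF1a and 6.52, 6.88 and 6.90 in WT hearts (-1.05 ± 0.15, adjusted p = 0.00063). Of 33 genes of the p53 response and apoptosis 6 were lower and 1 higher (median -0.17). caspa, an inflammatory caspase, was lower by -0.82 ± 0.09 (adjusted p = 0.00018), and mdm4, an inhibitor of p53, by -0.48 ± 0.08 (adjusted p = 0.00165). Of 15 neutrophil markers 2 were lower (13.3%) and of 12 lymphocyte markers 1 (8.33%), against 7.43% of all genes, and of 11 thrombocyte markers none was called. The neutrophil list mean was 7.52, 7.40 and 7.56 in dnHIF1a and 7.79, 7.90 and 7.83 in WT amputated hearts. Its groups did not overlap in either state, and 13 of the 15 amputated differences were negative. The 2 lower neutrophil calls became none without dnHIF1a array 2 or WT array 3 or with the covariate, and 5 from the 6 amputated arrays alone. The 6 lower p53 and apoptosis genes became 2 or 3 without dnHIF1a array 1 or 2 or WT array 1 or 3, 10 with array weights and 2 with the covariate. The 6 lower class I genes became 1 to 3 without WT array 3 or dnHIF1a array 1 or 2, and 1 with the covariate.

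**Figure D4:**
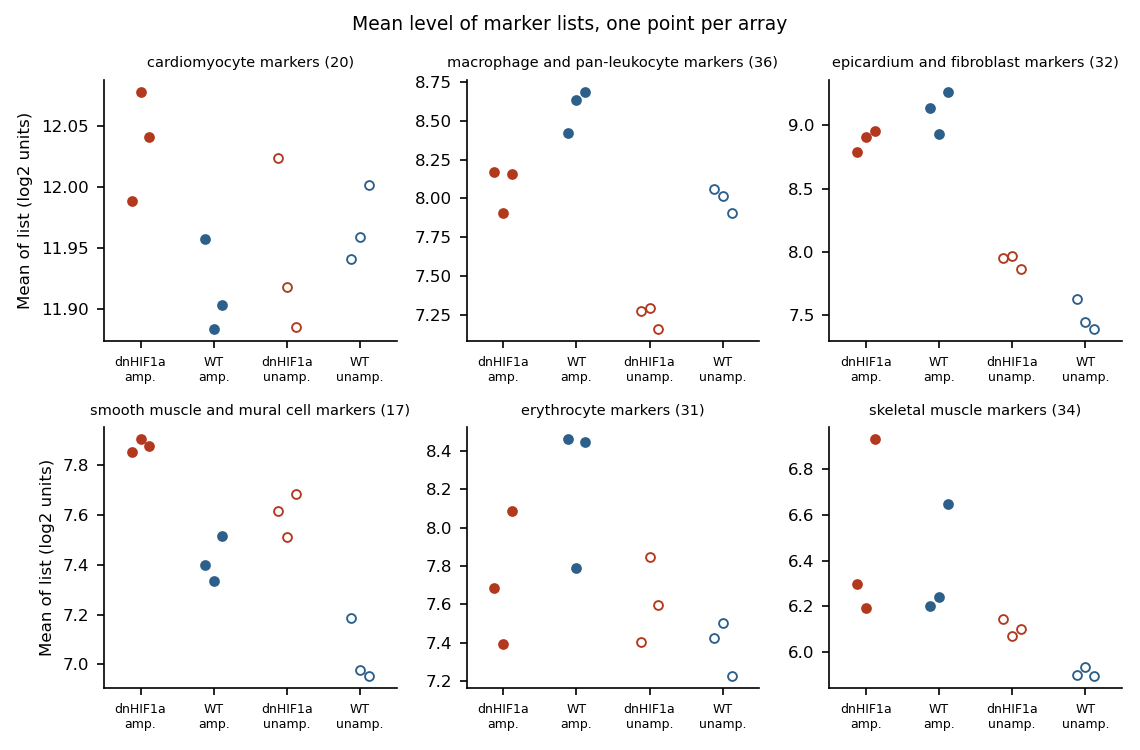
Mean level (log2 units) of 6 marker lists on every array, filled for amputated and open for unamputated hearts, with the number of genes in each list. Macrophage markers are lower and smooth muscle markers higher in dnHIF1a in both states, epicardium and fibroblast markers change their genotype order, and the erythrocyte and skeletal muscle means vary most among the amputated arrays.

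Of 31 erythrocyte markers 8 were lower and none higher in amputated dnHIF1a hearts (median -0.56), but the groups of the list mean overlapped, and the count ran from 1 to 14 when an amputated array was left out. It was 1 without dnHIF1a array 2 or WT array 1, 2 without WT array 3, 4 without dnHIF1a array 1 and 14 without WT array 2. The count thus depends strongly on which array is left out, and it was 4 in a fit to the 6 amputated arrays alone. Of 12 haem synthesis enzymes 3 were lower, which became 1 without dnHIF1a array 1 or 2 or WT array 1 or 3, in a fit to the 6 amputated arrays alone and with the covariate. The erythrocyte list behind the covariate was drawn up with haem synthesis enzymes among its genes, so the count with the covariate is not a separate check.

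Among contractile, calcium-handling and mural genes most of the called members were higher, against 6.77% of all genes. Of 20 cardiomyocyte markers 5 were higher and 1 lower (median 0.03), or 3 higher with the erythrocyte covariate. Of 38 sarcomere genes 8 were higher and 1 lower (median 0.08), and of 36 calcium handling and ion channel genes 7 were higher and 1 lower (median 0.06). The cardiomyocyte markers include ldb3a, myh7, atp2a2a and casq2, described below with the sarcomere and calcium handling genes, so the counts of these lists are not separate results. pdlim7, a PDZ-LIM protein of the Z-disc, read 10.27, 10.25 and 10.26 in dnHIF1a and 9.39, 9.41 and 9.39 in WT hearts (0.86 ± 0.07, adjusted p = 1.15e-05). The 3 arrays of each group were nearly equal and the groups far apart. ldb3a, a Z-disc protein of the same family, read 10.94, 10.88 and 10.79 in dnHIF1a and 10.32, 10.16 and 10.29 in WT amputated hearts (0.61 ± 0.07, adjusted p = 0.000227), against means of 10.94 in dnHIF1a and 10.92 in WT unamputated hearts, and its change in difference was called (0.59 ± 0.10, adjusted p = 0.0153). myh7, a ventricular-type myosin heavy chain, read 11.65, 11.74 and 11.83 in dnHIF1a and 10.44, 10.01 and 10.57 in WT hearts (1.40 ± 0.30, adjusted p = 0.00846). trim55a, a muscle ubiquitin ligase of the sarcomere, was higher by 0.79 ± 0.14 (adjusted p = 0.00354).

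slmapa, which encodes a tail-anchored protein of the sarcolemma and sarcoplasmic reticulum, read 11.10, 11 and 10.82 in dnHIF1a and 9.50, 9.53 and 9.29 in WT amputated hearts (1.53 ± 0.14, 2.89-fold, adjusted p = 2.19e-05). All 4 further probe sets of slmapa were also higher, by 0.68 to 1.16. Its difference in unamputated hearts was 0.49 ± 0.14, and the change was 1.04 ± 0.19 (adjusted p = 0.0182, or 0.0514 without amputated dnHIF1a array 1). filip1b, a filamin-interacting protein gene, was 9.40, 9.29 and 9.17 in dnHIF1a and 8.19, 8.11 and 8.52 in WT amputated hearts (1.01 ± 0.12, adjusted p = 0.00017), and not called in unamputated hearts (-0.27 ± 0.12), with a change of 1.28 ± 0.16 (adjusted p = 0.00382). atp2a2a, the calcium pump of the sarcoplasmic reticulum, was higher by 0.53 ± 0.08 (adjusted p = 0.00148, with 0.09 and adjusted p = 0.573 from a dimmer probe set), casq2, its calcium-storing partner calsequestrin, by 0.59 ± 0.11 (adjusted p = 0.00561), and the sodium pump subunit atp1a1b by 0.73 ± 0.10 (adjusted p = 0.000617). The pump's beta subunit gene atp1b2a was higher by 0.66 ± 0.13 (adjusted p = 0.00501), and of its 3 other probe sets 1 was called (0.61) and 2 were not (0.12 and 0.27). With the erythrocyte covariate the calls of myh7 (0.0593) and atp1b2a (0.0503) ended, and 3 sarcomere and 4 calcium handling genes were higher. The 8 higher sarcomere genes became 5 without dnHIF1a array 1.

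Of 17 smooth muscle and mural markers 5 were higher and 1 lower (median 0.28), and the mean of the list was 7.85, 7.90 and 7.88 in dnHIF1a and 7.40, 7.34 and 7.51 in WT amputated hearts. acta2, smooth muscle actin, read 9.55, 9.60 and 9.61 in dnHIF1a and 8.17, 8.18 and 8.43 in WT hearts (1.33 ± 0.23, adjusted p = 0.00281), and rgs4, a relative of rgs5a, was higher by 1.22 ± 0.23 (adjusted p = 0.00476, or 0.0585 with the covariate). Of 21 endothelium and endocardium markers 4 were higher and 4 lower, and 11 differences were positive and 10 negative (median 0.05). The list thus leaned to neither side, and the members described next are all from its higher side. plvapb, the diaphragm protein of fenestrated endothelium, was higher by 1.04 ± 0.15 (adjusted p = 0.00076), the apelin receptor gene aplnra by 0.58 ± 0.12 (adjusted p = 0.00606), and klf2b, a flow-responsive transcription factor gene, read 8.67, 9.16 and 9.19 in dnHIF1a and 7.70, 7.31 and 7.61 in WT hearts (1.47 ± 0.22, adjusted p = 0.00109). The 5 higher mural markers became 3 without dnHIF1a array 2 or 3 or WT array 1 or 2, 8 with array weights and 2 with the covariate. The 4 lower endothelium markers became 1 or 2 without dnHIF1a array 1 or WT array 1 or 3, and 2 with the trended and robust prior or the covariate.

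**Figure D5:**
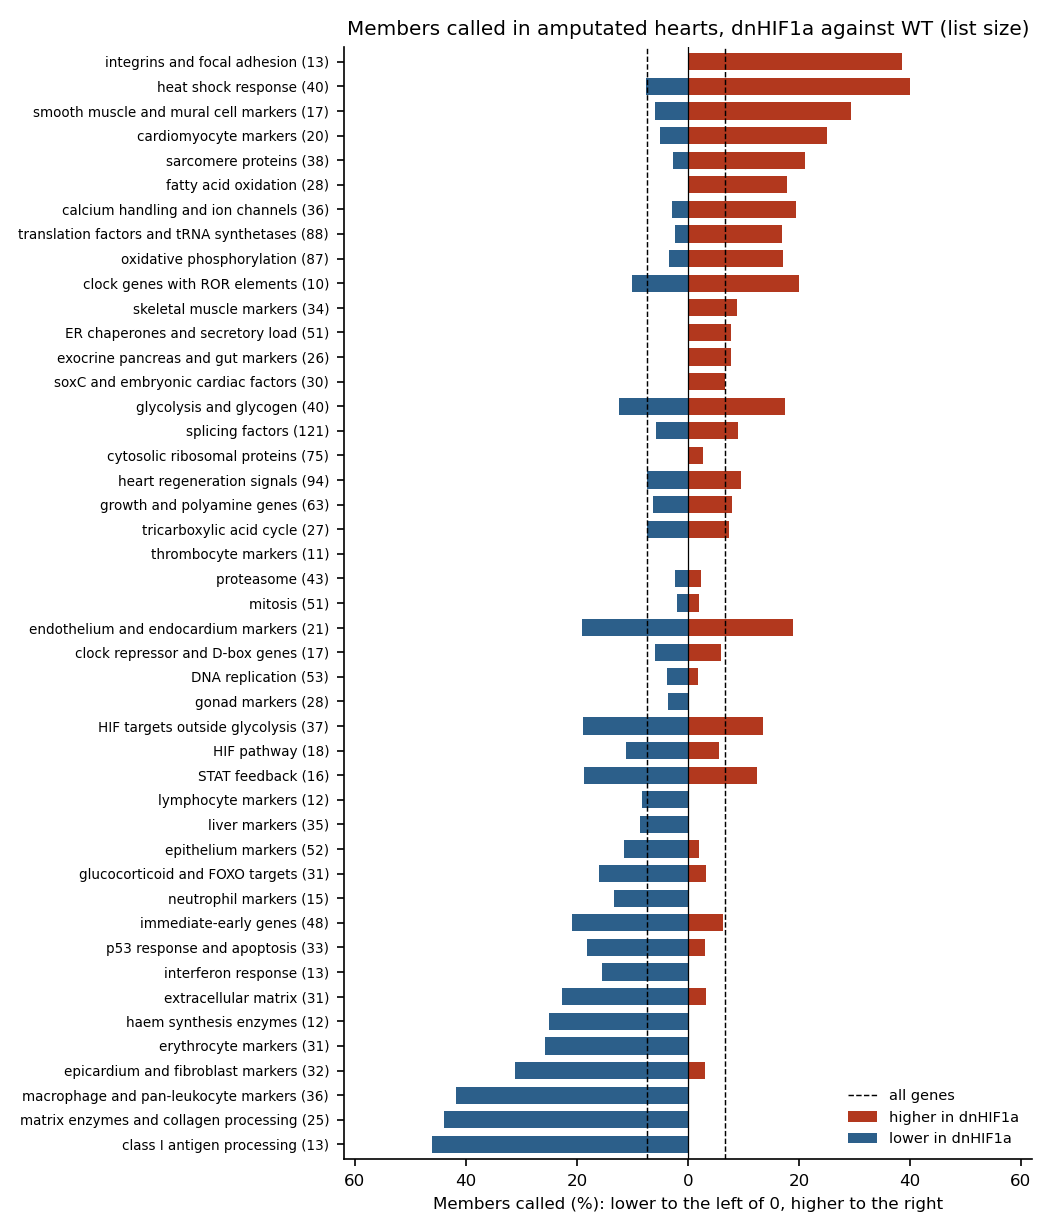
Share of the members of each gene list (list size in brackets) that were called higher (right of 0) or lower (left of 0) in amputated dnHIF1a hearts, in percent. The dashed lines mark the shares over all genes, 6.77% higher and 7.43% lower. Integrin, heat shock and mural lists lie farthest to the right, and class I, matrix enzyme and macrophage lists farthest to the left.

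Genes of the HIF system were called in both directions. Of 37 HIF targets outside glycolysis 5 were higher (13.5%) and 7 lower (18.9%), against 6.77% and 7.43% of all genes (median 0.04). Of 18 genes of the pathway itself 1 was higher (5.56%) and 2 were lower (11.1%), against the same shares of all genes. The lower count was 1 when any one of the dnHIF1a arrays was left out. epas1a, encoding the HIF2 alpha subunit, read 6.47, 6.58 and 6.66 in dnHIF1a and 6.90, 7.11 and 6.97 in WT amputated hearts (-0.42 ± 0.09, adjusted p = 0.0074). Another epas1a probe set gave 0.05 (adjusted p = 0.661), and a further one, also not called, read 3.36 in dnHIF1a and 3.61 in WT hearts (adjusted p = 0.0826). The second copy epas1b was not called (0.21 ± 0.11, adjusted p = 0.236). egln3, a prolyl hydroxylase that is itself a HIF target, read 6.89, 6.83 and 6.78 in dnHIF1a and 6.21, 6.15 and 6.13 in WT hearts, with no overlap but with an adjusted p of 0.0687. It passed in a fit to the 6 amputated arrays alone (0.000637), with array weights (0.0202) and without unamputated WT array 1 (0.0158) or 2 (0.00384). The HIF1 alpha-like gene hif1al was not called (0.13 ± 0.14, adjusted p = 0.619), nor was its relative hif1al2, whose groups overlapped (-1.10 ± 0.36, adjusted p = 0.0638). hif1al2 passed without WT array 2 (0.00717), without unamputated WT array 1 (0.0412) or 3 (0.0469), with array weights (0.0182) and without the flattest 25% of probe sets (0.0436).

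HIF targets moved in both directions. cxcl12a, a chemokine that guides leukocytes and vessel cells, read 8.78, 9.11 and 8.96 in dnHIF1a and 7.65, 7.79 and 7.80 in WT amputated hearts (1.2 ± 0.13, 2.3-fold, adjusted p = 0.000118), with 1.08 from its other probe set. The gene of its receptor, cxcr4b, read 6.82, 5.72 and 6.68 in dnHIF1a and 7.32, 7.91 and 8.13 in WT hearts (-1.38 ± 0.33, adjusted p = 0.0166), so ligand and receptor differed in opposite directions. The neutrophil marker list also holds cxcr4b, as its lowest member, so this call is not separate from the lower calls of that list. edn1, endothelin, a vasoconstrictor peptide, read 6.74, 6.28 and 6.19 in dnHIF1a and 8.05, 7.79 and 8.12 in WT hearts (-1.58 ± 0.19, adjusted p = 0.000275). higd1a, a mitochondrial hypoxia-induced protein, was higher by 0.83 ± 0.13 (adjusted p = 0.00153), and ero1a, the oxidase of disulphide formation, by 0.92 ± 0.21 (adjusted p = 0.0122). vegfaa, the vessel growth factor, read 8.64, 8.70 and 7.92 in dnHIF1a and 7.58, 7.89 and 7.50 in WT hearts (0.76 ± 0.19, adjusted p = 0.0199), with dnHIF1a array 3 close to the highest WT array. angptl4, a lipase inhibitor, read 6.22, 6.42 and 6.41 in dnHIF1a and 7.50, 7.98 and 8.33 in WT hearts (-1.59 ± 0.38, adjusted p = 0.016). ddit4, an inhibitor of TOR signalling, averaged 4.32 ± 0.57 in dnHIF1a and 6.09 ± 0.49 in WT hearts (SD, n = 3; -1.77 ± 0.42, adjusted p = 0.0162).

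Several of these calls ended when 1 array was left out, for most of them whichever of several arrays it was. That of cxcr4b ended without WT array 2 (0.0509), WT array 3 (0.0665) or dnHIF1a array 2 (0.0713), that of vegfaa without dnHIF1a array 1 (0.0857) or 2 (0.0908) or WT array 1 (0.0698) or 3 (0.0733), and that of ero1a without dnHIF1a array 1 (0.053). The angptl4 call ended without WT array 3 (0.0647) or dnHIF1a array 1 (0.0597), and that of ddit4 without WT array 3 (0.0663) or dnHIF1a array 1 (0.0536) or 2 (0.0758), and with the trended and robust prior (0.0546). With the erythrocyte covariate the adjusted p was 0.0859 for cxcr4b, 0.221 for vegfaa, 0.0709 for ero1a, 0.0511 for angptl4 and 0.103 for ddit4, and 2 higher and 2 lower targets were called. The counts were 2 or 3 higher and 3 to 6 lower without dnHIF1a array 1 or 2 or WT array 1 or 3.

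Glycolytic genes also moved both ways, with 7 of 40 higher and 5 lower (median 0.05). ldha, lactate dehydrogenase A, read 11.34, 11.23 and 11.27 in dnHIF1a and 10.84, 9.97 and 10.41 in WT hearts (0.87 ± 0.20, adjusted p = 0.0128), and pgk1, phosphoglycerate kinase, was higher by 0.43 ± 0.08 (adjusted p = 0.00475, with 0.22 and adjusted p = 0.213 from its other probe set). gpib, a glucose-6-phosphate isomerase, read 8.46, 9.19 and 8.67 in dnHIF1a and 9.93, 10.07 and 9.61 in WT hearts (-1.10 ± 0.16, adjusted p = 0.00111). aldocb, an aldolase, was lower by -0.74 ± 0.10 in amputated (adjusted p = 0.000462) and by -1.75 ± 0.10 in unamputated hearts, a difference that was smaller after amputation by the test of the change (1.01 ± 0.14, adjusted p = 0.00462). The counts were 3 or 4 higher and 2 to 4 lower without WT array 2 or 3 or any one of the dnHIF1a arrays, 4 of each after repeated quantile normalization and 3 of each with the covariate.

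Among oxidative phosphorylation genes most differences were small and positive, with large opposite ones in single subunits. Of 87 oxidative phosphorylation genes 70 had a positive difference, 15 were called higher and 3 lower (median 0.09). cox7b, a subunit of cytochrome c oxidase, read 11.67, 11.56 and 11.55 in dnHIF1a and 13.05, 13.03 and 13.03 in WT amputated hearts (-1.44 ± 0.07, 2.72-fold lower, adjusted p = 3.04e-07), and -1.74 ± 0.07 in unamputated hearts. cox4i1l, another subunit of the same complex, was lower by -0.59 ± 0.07 (adjusted p = 0.000293). The higher members included ndufaf4, an assembly factor of complex I (0.87 ± 0.12, adjusted p = 0.000501), and ndufs4, a complex I subunit (0.43 ± 0.08, adjusted p = 0.00465). The 15 higher genes became 4 to 7 without dnHIF1a array 1 or 2 or WT array 1 or 3, and 3 with the covariate, with which 32 of the 87 had a negative difference.

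Of 28 fatty acid oxidation genes 5 were higher and none lower, while 15 of the 28 differences were negative (median -0.03). Among the higher ones was acad8, whose mammalian counterpart is an acyl-CoA dehydrogenase of valine breakdown, not of fatty acids. It read 8.55, 8.74 and 8.58 in dnHIF1a and 7.44, 8.04 and 7.35 in WT hearts (1.01 ± 0.14, adjusted p = 0.000682). The count of higher genes was 3 without dnHIF1a array 1 or 2 or WT array 1 or 3, and 3 with the covariate. Of 27 genes of the tricarboxylic acid cycle 2 were higher and 2 lower (7.41% each), near the 6.77% and 7.43% of all genes. mdh1aa, a cytosolic malate dehydrogenase, was higher by 0.45 ± 0.06 (adjusted p = 0.000868). aco1, the cytosolic aconitase that also acts as an iron regulatory protein, was lower by -0.87 ± 0.10 (adjusted p = 0.000233).

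Heat shock and protein folding genes were higher in amputated dnHIF1a hearts in 16 of 40 members and lower in 3 (median 0.20). In unamputated hearts 2 were higher and 9 lower, against 6.3% and 6.24% of all genes (median -0.055). The list means of unamputated hearts overlapped, at 8.85, 8.72 and 8.95 in dnHIF1a and 9.09, 8.95 and 8.92 in WT. hsf1, the transcription factor of the heat shock response, read 6.59, 7.48 and 6.85 in dnHIF1a and 5.70, 5.40 and 5.29 in WT amputated hearts (1.51 ± 0.21, 2.85-fold, adjusted p = 0.000617), while its other probe set read 3.87 in dnHIF1a and 3.73 in WT hearts and was not called (adjusted p = 0.383). bag2, a co-chaperone of HSP70, read 6.16, 6.59 and 6.28 in dnHIF1a and 4.71, 5.08 and 5.02 in WT hearts (1.41 ± 0.15, adjusted p = 9.1e-05). cct4, a chaperonin subunit that helps fold actin and tubulin, was higher by 0.58 ± 0.09 (adjusted p = 0.00122). The lower members were hspa8b, an HSP70 family chaperone (-0.80 ± 0.08, adjusted p = 7.64e-05), ahsa1a, a co-chaperone of HSP90 (-0.55 ± 0.10, adjusted p = 0.00444), and the small heat shock protein gene hspb1 (-0.44 ± 0.09, adjusted p = 0.00713, or 0.0868 with the covariate). The 16 higher genes became 4 to 10 without dnHIF1a array 1 or 2 or any one of the WT arrays, and 3 with the covariate. Of 51 genes of ER folding and secretion 4 were higher (7.84%, near the 6.77% of all genes) and none lower. Among the higher ones was ssr4, a subunit of the translocon-associated complex (0.47 ± 0.10, adjusted p = 0.00961). Those 4 became 2 without dnHIF1a array 1 or with the covariate, 7 without unamputated WT array 1 and 8 with array weights.

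Of 88 translation factors and tRNA synthetases 15 were higher and 2 lower (median 0.15). eif6, an anti-association factor of the large ribosomal subunit, was higher by 0.45 ± 0.09 (adjusted p = 0.00775, or 0.0777 with the covariate), and eif3hb, a subunit of an initiation factor, was lower by -0.54 ± 0.10 (adjusted p = 0.00519). The count of higher genes was 1 to 9 when any one of the 6 amputated arrays was left out and 1 with the covariate. Of 63 growth and polyamine genes 5 were higher (7.94%) and 4 lower (6.35%), near the 6.77% and 7.43% of all genes. The median difference of that list was 0.20. odc1, ornithine decarboxylase, which starts polyamine synthesis, read 7.55, 6.82 and 7.02 in dnHIF1a and 5.60, 5.67 and 5.91 in WT amputated hearts (1.40 ± 0.27, 2.65-fold, adjusted p = 0.00528). In unamputated hearts it read 5.97, 6.23 and 5.77 in dnHIF1a and 7.44, 7.15 and 6.18 in WT (-0.93 ± 0.27, adjusted p = 0.0434), and the change in difference was 2.34 ± 0.38 (adjusted p = 0.0114). The genotype order of odc1 thus turned round, with 1 low WT array among the unamputated hearts. pprc1, a coactivator of mitochondrial biogenesis, was higher by 0.88 ± 0.19 in amputated hearts (adjusted p = 0.0108), and npm1b, a nucleophosmin, was lower by -0.93 ± 0.13 (adjusted p = 0.000731). The higher growth genes were 2 or 3 without dnHIF1a array 1 or 2 or WT array 2 or 3, 12 or 14 without unamputated WT array 3 or 1, 8 after repeated quantile normalization, 11 with array weights and 16 from the 6 amputated arrays alone.

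Called immediate-early genes were mostly lower, and genes of cytokine signalling were called in both directions. Of 48 immediate-early genes 10 were lower (20.8%) and 3 higher (6.25%), against 7.43% and 6.77% of all genes (median -0.16). Of the 48 differences 18 were positive, the highest at 1.47. Among the lower ones jun, a subunit of the AP-1 factor, read 9.29, 9.46 and 9.28 in dnHIF1a and 9.95, 10.13 and 9.91 in WT hearts (-0.65 ± 0.13, adjusted p = 0.00749, with -0.46 and adjusted p = 0.0873 from its other probe set). klf11a, a Krüppel-like factor, was lower by -0.86 ± 0.17 (adjusted p = 0.0057), and dusp4, a phosphatase of MAP kinases, by -0.65 ± 0.12 (adjusted p = 0.0049). The 10 lower genes became 5 without WT array 1, 6 without dnHIF1a array 2 and 3 with the covariate. Of 16 STAT feedback genes 2 were higher and 3 lower. Without dnHIF1a array 1 or 2, or with the covariate, 1 was higher and 1 lower, without WT array 1 or 3 the lower count was 1, without WT array 2 the higher count was 1, and without unamputated WT array 1 or from the 6 amputated arrays alone 4 were higher. cisha, a suppressor of cytokine signalling, read 7.97, 8.05 and 8.26 in dnHIF1a and 6.60, 6.21 and 6.63 in WT hearts (1.61 ± 0.26, adjusted p = 0.00197), and pim3, a survival kinase, read 5.91, 6.16 and 5.46 in dnHIF1a and 7.84, 8.19 and 7.82 in WT hearts (-2.11 ± 0.27, 4.31-fold lower, adjusted p = 0.000374). The groups of these 2 genes were far apart and in opposite directions.

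Of 31 glucocorticoid and FOXO targets 5 were lower (16.1%) and 1 higher (3.23%) in amputated hearts, against 7.43% and 6.77% of all genes (median -0.12). In unamputated hearts 11 were higher and 1 lower, against 6.3% and 6.24% of all genes (median 0.33). fbxo32, the muscle atrophy ubiquitin ligase atrogin, was lower in amputated hearts (-0.63 ± 0.15, adjusted p = 0.0149, or 0.0657 without WT array 1 and 0.055 without dnHIF1a array 3) and higher in unamputated ones (0.71 ± 0.15, adjusted p = 0.00808), with a change of -1.34 ± 0.21 (adjusted p = 0.00985). arrdc2, an arrestin-domain gene outside that list, read 7.31, 6.80 and 7.54 in dnHIF1a and 8.56, 8.57 and 8.88 in WT amputated hearts (-1.45 ± 0.18, adjusted p = 0.000318), against 8.60, 8.44 and 8.47 in dnHIF1a and 7.81, 7.56 and 8.17 in WT unamputated hearts. Its change was -2.11 ± 0.26 (adjusted p = 0.00335), but a dimmer probe set of arrdc2, at 4.52 in dnHIF1a and 4.47 in WT amputated hearts, was not called (0.04, adjusted p = 0.826). The 5 lower targets became 1 to 3 without WT array 1 or 3 or any one of the dnHIF1a arrays, 3 with the trended and robust prior and 1 with the covariate. Of 17 clock repressor and D-box genes, per2 was higher (0.50 ± 0.10, adjusted p = 0.00484, against 0.14 with adjusted p = 0.407 from its other probe set) and ciarta, a circadian repressor, lower, at 7.63, 7.75 and 7.63 in dnHIF1a and 8.55, 8.80 and 8.83 in WT hearts (-1.06 ± 0.14, adjusted p = 0.000504). Of 10 clock genes with ROR elements 2 were higher and 1 lower, and none of these calls held without dnHIF1a array 1 or with the covariate. The lower call also ended without dnHIF1a array 2 or WT array 2 or 3, and 1 higher call was left without dnHIF1a array 2 or 3 or any one of the WT arrays. No sampling hour is given in the labels, and its part in the clock genes was not tested.

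Of 94 genes of signals known from heart regeneration 9 were higher and 7 lower (median 0.07), which is near the background. wnt11, a Wnt ligand of heart development, read 5.15, 4.92 and 5.33 in dnHIF1a and 6.38, 6.32 and 6.48 in WT amputated hearts (-1.26 ± 0.17, adjusted p = 0.00053), with -1.18 ± 0.17 in unamputated hearts. smad3b, a mediator of TGF-beta signals, was lower by -0.49 ± 0.08 (adjusted p = 0.0023), while dkk3b, a secreted Dickkopf family protein (0.55 ± 0.10, adjusted p = 0.00488), and mdkb, the second midkine gene (0.54 ± 0.11, adjusted p = 0.00685), were higher. The counts were 4 to 7 higher and 2 to 4 lower without dnHIF1a array 1 or 2 or WT array 1 or 3, and 3 of each with the covariate. Of 30 soxC and embryonic cardiac factor genes 2 were higher (6.67%, also near the background), with tbx2b, a T-box repressor, at 0.78 ± 0.14 (adjusted p = 0.00348). gata4, a cardiac transcription factor linked to regenerating muscle, was not called (0.01 ± 0.08, adjusted p = 0.959).

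Few cell cycle genes were called. Of 53 DNA replication genes 1 was higher and 2 lower, and 41 had negative differences (median -0.15). The mean of that list was 6.03, 5.91 and 5.85 in dnHIF1a and 5.97, 5.84 and 6.32 in WT amputated hearts, with WT array 3 alone standing high. Without WT array 3 the median was 0.01 and 23 of the 53 genes had negative differences, so the direction rests on that array. Of 51 mitosis genes 1 was higher and 1 lower (median -0.14, or -0.06 without WT array 3). pcna, the replication clamp, read 9.83, 9.53 and 9.44 in dnHIF1a and 9.55, 9.35 and 10.39 in WT amputated hearts (-0.16 ± 0.25, adjusted p = 0.743), with WT array 3 the highest and WT array 2 the lowest of the 6. rfc1, a clamp loader subunit, was lower by -0.53 ± 0.08 (adjusted p = 0.00126), pole3, a DNA polymerase epsilon subunit, higher by 0.72 ± 0.11 (adjusted p = 0.00131), and kif23, a kinesin of cytokinesis, lower by -0.72 ± 0.13 (adjusted p = 0.00378), although its other probe set showed no such difference (0.02, adjusted p = 0.934). Of 121 splicing factors 11 were higher (9.09%) and 7 lower (5.79%), near the 6.77% and 7.43% of all genes. The higher count was 4 without dnHIF1a array 1 or 2 or WT array 1 or 2, 5 with the covariate and 18 with array weights, and the lower count was 3 or 4 without WT array 1 or 3 or any one of the dnHIF1a arrays and 2 with the covariate. Of 75 cytosolic ribosomal protein genes 2 were higher and none lower, and of 43 proteasome genes 1 was higher and 1 lower, all below the background. Of the markers of other tissues, 3 of 34 for skeletal muscle were higher (8.82%) and none lower, and 2 of 26 for exocrine pancreas and gut were higher (7.69%). For liver 3 of 35 (8.57%, hp among them) and for gonad 1 of 28 (3.57%) were lower. These shares stand against 6.77% of all genes higher and 7.43% lower.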

How the data were processed

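Total RNA from adult zebrafish hearts was hybridised to 12 Affymetrix Zebrafish Genome Arrays, 3 in each of 4 groups. The values deposited by the authors are in log2 units, one per probe set and array, which the submitters' processing notes connect with RMA and limma without giving versions or roles. The number of arrays limits the precision. Of 15617 probe sets, 115 of the maker's controls were left out and 15502 tested. Through the platform annotation 10795 probe sets had a single gene symbol, 135 several and 4572 none.

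A linear model with the 4 groups as levels was fitted to all 12 arrays with limma 3.58.1 in R 4.3.3 (8 residual and 4.46 prior degrees of freedom), with Benjamini-Hochberg adjustment over all tested probe sets within each contrast. The contrasts were dnHIF1a minus WT in amputated hearts, the same in unamputated hearts, and the difference of these. The fitting code was tested on simulated data. Alternatives were repeated quantile normalization, median centring, leaving out the dimmest or flattest 25% of probe sets, array weights, a prior that was trended and robust, a size threshold of 1 log2 unit, the 6 arrays compared alone, the replicate number as a block, the erythrocyte mean as a covariate, the most variable probe set per gene, and each array left out.

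The comparison, the 45 gene lists and the rule for naming genes were chosen with earlier results of these data known. The rule names the 12 higher and 12 lower genes with the largest called differences, non-overlapping groups and means of at least 4. It adds up to 3 called members of each list per direction by p-value, up to 8 genes per direction called in both states or in the difference of the differences, and a set of heart, HIF and chemokine genes, and 121 of the genes it names are described. After values were seen, dld was replaced by dldh in the tricarboxylic acid cycle list and the proteasome list was narrowed. The oxidative phosphorylation list includes NDUFAF assembly factors. Arrays with the same number did not deviate together across groups, so the numbers were not taken to pair the samples.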

Additional observations from a re-analysis of the deposited data

Results flagged for a closer look

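For 27 of the genes described, the genotype difference itself differed between amputated and unamputated hearts by the test of the change (limma, adjusted over all probe sets). The change (amputated minus unamputated difference, log2 units) was negative for postnb (-2.60), arrdc2 (-2.11), aebp1b (-1.76), krt15 (-1.76), thbs4b (-1.64), mmp2 (-1.51), col1a2 (-1.36), fbxo32 (-1.34), ciarta (-1.26), col5a2a (-1.02), mmp14b (-0.94) and krt94 (-0.72). It was positive for odc1 (2.34), filip1b (1.28), aldocb (1.01), itga5 (0.98), grna (0.86) and ldb3a (0.59). These 18 genes were called whichever of the 12 arrays was left out. With the erythrocyte covariate, however, only aebp1b, fbxo32, filip1b, krt15 and mmp2 of the 27 were still called.

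The other 9 were called with fewer arrays left out. slmapa (1.04) was called in 11 of 12 such fits and not without amputated dnHIF1a array 1 (adjusted p = 0.0514). dusp4 (-0.94) was called in 10, and not without amputated dnHIF1a array 1 (0.0533) or unamputated dnHIF1a array 2 (0.0512). per2 (0.69) was called in 10, and not without amputated dnHIF1a array 1 (0.0633) or WT array 1 (0.0575). pprc1 (1.45) was called in 9, and not without amputated dnHIF1a array 1 (0.0571) or 2 (0.056) or WT array 1 (0.0553). tgm2b (-1.19) was called in 8, and not without amputated dnHIF1a array 1 or 2, WT array 1 or unamputated dnHIF1a array 1, with an adjusted p of up to 0.0648. bag2 (1.03) was called in 7, and not without amputated dnHIF1a array 2, WT array 1, unamputated dnHIF1a array 1 or 2 or unamputated WT array 2, with an adjusted p of up to 0.0693. cisha (1.67) was called in 4, being lost without any amputated array or unamputated dnHIF1a array 1 or 2 (up to 0.096). ddit4 (-2.62) was called in 3, those without amputated dnHIF1a array 3, unamputated dnHIF1a array 3 or unamputated WT array 3 (otherwise up to 0.11). pdlim7 (0.43) was called in 2, those without unamputated WT array 1 or 3 (otherwise up to 0.0983).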

How the results depend on the processing

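Between the amputated groups 2000 probe sets were called (954 higher and 1046 lower in dnHIF1a). With the erythrocyte covariate the count was 884 (395 and 489), and with a threshold of 1 log2 unit 215 (105 and 110). Leaving out each array gave 1138 to 2317 (511 to 1139 higher, 627 to 1178 lower). In unamputated hearts the 1 log2 unit threshold gave 254 (148 and 106), the 6 arrays alone gave 560 lower, and leaving out each array gave 1182 to 1754 (604 to 912, 576 to 842). For the change in genotype difference the covariate gave 24 (7 and 17), the threshold 120 (37 and 83), and leaving out each array 149 to 590 (52 to 262, 95 to 328). Under the other alternatives run (both normalizations, both probe set filters, the trended and robust prior and array weights) the counts were within 1.5 times of these. For a given comparison, no gene described was called in opposite directions under different settings. An uncalled difference could change sign, as that of pcna did without its highest amputated WT array. The erythrocyte level and the genotype share part of their variation among these 6 arrays, and which of them a lost call follows was not tested.

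With the replicate block the counts were 1789 (826 and 963) in amputated hearts, 1666 in unamputated hearts and 311 for the change, and arrays of the same number did not deviate together (correlations 0.009, 0.111 and 0.129 between the amputated groups). Of the genes described, fn1a in amputated hearts (adjusted p = 0.0685) and the change in genotype difference of ddit4 (0.0672) and pdlim7 (0.065) were not called with the block, leaving 25 of the 27 called changes, and the changes of sult2st1 (0.00937), sult2st2 (0.0354) and p4ha2 (0.0354) were called. Among lists it gave 3 lower glucocorticoid and FOXO targets in place of 5, 4 lower splicing factors in place of 7, and no higher cytosolic ribosomal protein gene in place of 2. List counts of 2 or 3 genes moved by at most 3 under the alternatives run. With 3 arrays a group and no background measure in the values, differences near the low end of the scale have no reliable size.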
